A study of Mus musculus with 10 samples.

Results

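The 57 genes described here encode plasma proteins, apolipoproteins and serpins (serine protease inhibitors), among the 24537 genes counted in mouse heart. They were taken by symbol: apolipoproteins Apoa to Apom, serpins of the a, c, d, f and g groups, the fibrinogen chains Fga, Fgb and Fgg, and the carriers Alb, Ttr, Ahsg, Trf, Hp, Hpx and Ambp, which made 16 apolipoproteins, 31 serpins, 3 fibrinogen chains and 7 carriers. RNA came from the hearts of 10 mice aged 6 weeks. The 5 controls (Rosa26-rtTA2+/-;TRE-SOD2-shRNA-/-) and the 5 iSOD2 mice (Rosa26-rtTA2+/-;TRE-SOD2-shRNA+/-) shared the transactivator, which the Rosa26 promoter drives in the whole body, and exposure to doxycycline before birth. In iSOD2 mice the doxycycline-dependent hairpin against Sod2, whose protein clears superoxide in the mitochondrial matrix, had been active in utero only. There were 3 males and 2 females among the controls and 2 males and 3 females among the iSOD2 mice, and litter A gave 2 mice to each genotype and litter B 3. A mouse is named by its genotype and its number.

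Most of these proteins are textbook products of the hepatocyte. Albumin carries fatty acids and keeps up the osmotic pressure of plasma, apolipoproteins hold lipoprotein particles together and steer them to receptors, fibrinogen forms the clot, and the serpins restrain proteases of clotting, complement and inflammation by trapping them. A smaller number are also made outside the liver: apolipoprotein E by macrophages and other tissue cells, the complement C1 inhibitor (Serping1) and pigment epithelium-derived factor (Serpinf1) by fibroblasts and other stromal cells, and apolipoprotein D by several peripheral tissues. Transcripts of both kinds were present in these hearts, and the first question was which members rose and fell with Alb from mouse to mouse and which did not.

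The 250 bases before the start are shown for Alb, the most counted member that moves with liver genes. They are also shown for Serpina1b and Serpina1e, whose ratio parts by sex below, and for Apoe, the most counted steady member (defined below). They come from RefSeq on GRCm38.p6 (the build called mm10), on the strand of the gene, at chr5:90460620-90460869 (+), chr12:103738190-103738439 (−), chr12:103956898-103957147 (−) and chr7:19699189-19699438 (−) in that order. Capitals mark GTTAAT, the core of sites for the hepatocyte factor HNF1, and TTGCNNAA, a core of C/EBP sites, searched on both strands.
Alb: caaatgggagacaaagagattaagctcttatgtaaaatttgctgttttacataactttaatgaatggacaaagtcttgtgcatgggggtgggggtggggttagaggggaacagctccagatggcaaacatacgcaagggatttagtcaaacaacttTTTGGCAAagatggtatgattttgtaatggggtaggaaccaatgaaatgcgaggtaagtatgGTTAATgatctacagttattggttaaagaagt
Serpina1b: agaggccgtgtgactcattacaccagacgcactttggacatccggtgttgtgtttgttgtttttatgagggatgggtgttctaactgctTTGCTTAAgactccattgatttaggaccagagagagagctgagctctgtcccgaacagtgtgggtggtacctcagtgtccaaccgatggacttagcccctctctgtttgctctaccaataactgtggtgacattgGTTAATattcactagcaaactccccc
Serpina1e: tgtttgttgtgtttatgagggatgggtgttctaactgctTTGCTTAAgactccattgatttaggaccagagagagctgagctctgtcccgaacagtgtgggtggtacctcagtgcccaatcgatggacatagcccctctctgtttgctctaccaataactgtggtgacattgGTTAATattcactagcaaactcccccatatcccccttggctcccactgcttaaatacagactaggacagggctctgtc
Apoe: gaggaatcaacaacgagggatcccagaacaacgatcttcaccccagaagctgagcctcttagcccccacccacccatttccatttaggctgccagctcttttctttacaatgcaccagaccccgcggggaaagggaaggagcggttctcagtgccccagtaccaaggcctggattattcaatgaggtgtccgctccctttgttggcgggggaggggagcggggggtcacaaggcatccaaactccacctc
The GTTAAT core was in 6.43% of the 32851 RefSeq promoter windows of this length and TTGCNNAA in 9.56%. Of the 42 members with a RefSeq entry, 11 held GTTAAT: Alb, Fga, Fgb, Serpina1a to Serpina1e, Apoc2, Serpina3c and Serpina7. Of the 18 members with an entry that follow Alb (classes defined below), 7 held GTTAAT and 8 held TTGCNNAA. Of the 5 between, 2 held GTTAAT and 2 TTGCNNAA, and of the 15 scarce members 2 and 6 did. Of the 4 steady members 0 held either core, among them Apoe, and 4 windows are too few to compare with the shares over all windows. Serpina1a to Serpina1e are near copies, so their matches are not independent. In Alb the GTTAAT core began 32 bases before the start. In Serpina1b it began 26 bases before and in Serpina1e 78, and the longest stretch that these 2 windows share, 69 bases, was shifted by 52 bases, so the annotated starts lie at different places in the shared sequence. A match of letters is a description and not a site in use.

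The libraries held 16448090 to 24263086 counts, and the 57 members together took 0.0377% to 0.206% of them. The hearts had the markers of their tissue: all 10 ventricular cardiomyocyte markers fixed for this check were steady across mice. Sod2 itself stood at 10573 ± 588 normalized counts in control and 10781 ± 449 in iSOD2 hearts (SD, 5 mice a group; two-sided exact permutation p = 0.532), a difference too small to detect with 5 mice a group. The library of control 1 stood apart for liver genes: the mean log2 level of 30 hepatocyte genes (metabolic enzymes and uptake transporters) was 2.34 there and 5.36 to 7.60 in the other 9 mice. Results that rest on control 1 are given with and without it, except for the ratios to Alb by sex. Values below are counts divided by DESeq2 size factors (normalized counts) unless another scale is named, and a level per length is counts per kilobase of exon per 1000000 counts.

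Alb (NM_009654, chr5:90460870-90476602) was the most counted member. It had 47.9 normalized counts in control 1, 1607 in control 2, 6698 in control 3, 3932 in control 4 and 3926 in control 6. In the iSOD2 mice it had 7292 in iSOD2 5, 3131 in iSOD2 7, 8766 in iSOD2 8, 6275 in iSOD2 9 and 14601 in iSOD2 10. The highest heart thus had 305 times the Alb of the lowest, and the genotypes overlapped between 3131 and 6698. In bulk tissue, fewer cells that make a transcript and less transcript per cell cannot be told apart.

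Members were then sorted by how they moved with Alb over the 10 mice, on log2(normalized count + 1). A member with a mean of at least 10 was said to follow Alb when its correlation r was at least 0.9 and its slope on Alb at least 0.5, and to be steady when its slope lay within ±0.1 and its highest mouse was less than 4 times its lowest. Of the 57 members, 27 followed Alb (Alb itself included), 5 were steady, 6 lay between, and 19 had a mean under 10 and were not sorted. Control 1 stretched these relations, as its Alb was 0.767% of the mean of the other mice. Without control 1, 22 members still met the rule for followers, and Serpina3k, Serpina1c, Hp, Serpina3m and Serpina10 no longer did. Of the steady members, Apoe (slope 0.13, r = 0.76) and Serpinf1 (slope 0.24, r = 0.83) lay past the ±0.1 limit without control 1. These correlations are descriptions of 10 libraries that share their sources of RNA.

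**Figure D1:**
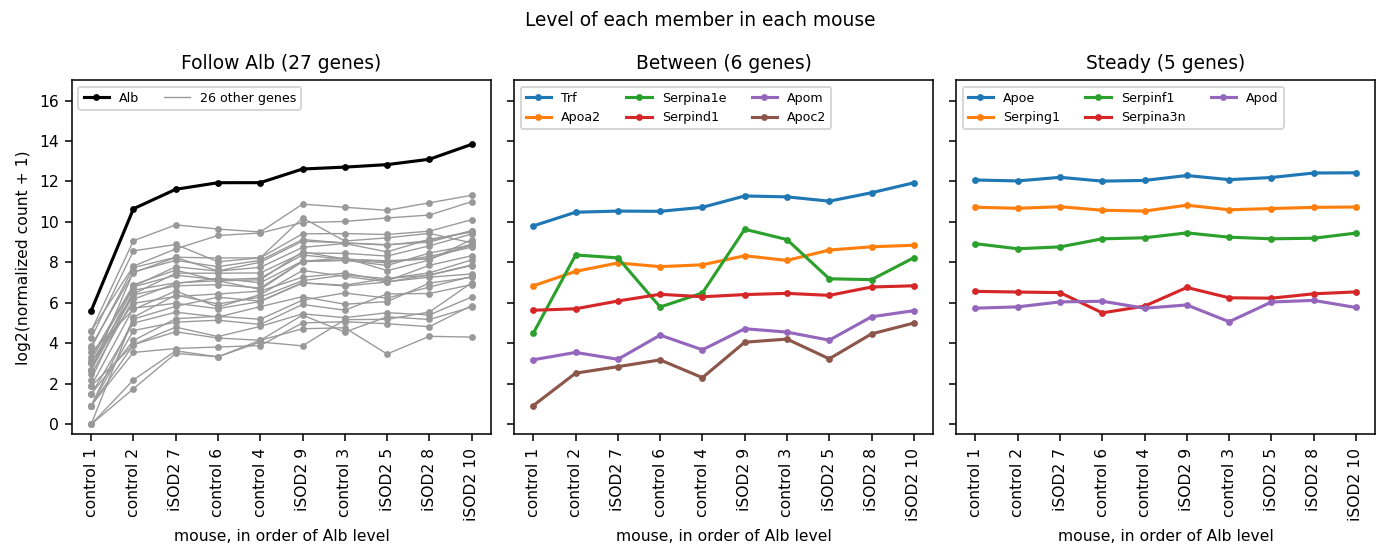
Log2(normalized count + 1) of each sorted member (y axis) in the 10 hearts, placed from left to right in order of their Alb level; black is Alb, grey are the 26 other members that follow it, and colours name the 6 between and 5 steady members. The grey lines fall with Alb in control 1, while the 5 steady members stay level.

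The followers covered every role in the set. The lipoprotein apolipoproteins were Apob, the scaffold of very low density lipoprotein, Apoa1, the main protein of high density lipoprotein, Apoa5, Apoc1, Apoc3 and Apoc4, which modulate the clearance of triglyceride-rich particles, Apof, and Apoh, which binds phospholipid. Apob (chr12:7977677-8016839) had 23.5 normalized counts in control 1, 537 in control 2, 1693 in control 3, 725 in control 4 and 802 in control 6. It had 1524, 925, 1970.0, 1884 and 2553 in iSOD2 5, 7, 8, 9 and 10. Apob kept the order of Alb closely, with r = 0.99 and a slope of 0.83, and r = 0.94 without control 1. Apoa1 (chr9:46228630-46230469) ran from 13.6 in control 1 to 499 in control 3 among controls, and from 303 in iSOD2 7 to 762 in iSOD2 10 among iSOD2 mice. Apoh had the highest r with Alb of the 26 other followers, 0.998, and its levels ran from 0.904 in control 1 to 234 in iSOD2 10. For each of these apolipoproteins the heart with least Alb also had the least of the member.

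The carriers Ahsg, Ttr, Hpx, Hp and Ambp followed as well. Ahsg (fetuin-A, an inhibitor of mineral deposition; chr16:22892015-22899451) had 23.5, 224, 1041, 699 and 644 normalized counts in control 1, 2, 3, 4 and 6. It had 1173, 406, 1296, 1002 and 2049 in iSOD2 5, 7, 8, 9 and 10. Its slope on Alb was 1.01 without control 1, so Ahsg and Alb changed in nearly fixed proportion among the other 9 hearts. Ttr, the carrier of thyroid hormone and of the retinol-binding protein, ran from 5.43 in control 1 to 483 in iSOD2 10. Hpx and Hp bind free haem and free haemoglobin; Hpx ran from 5.43 to 559.9. Hp ran from 10.9 to 194, and its slope of 0.50 lay at the limit of the rule. Leaving out any of 5 mice (control 1, 2 or 3, iSOD2 8 or 9) moved it out. Without control 1 its slope was 0.64, and its r fell from 0.95 to 0.84, under the limit of 0.9. Ambp had 0 counts in control 1, where 3 counts is the limit that such a value allows, and 38.2 to 278 normalized counts in the others.

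The fibrinogen chains, which assemble in equal numbers into the clotting protein, moved together. Fga had 8.14, 112, 489, 215 and 189 normalized counts in control 1, 2, 3, 4 and 6 and 366, 219.6, 565, 428 and 721 in iSOD2 5, 7, 8, 9 and 10. Fgb ran from 7.24 to 677 and Fgg from 4.52 to 466, both lowest in control 1 and highest in iSOD2 10. Their r with Alb was 0.99 for each. Per length, the chains stood at 4.82 (Fga), 7.98 (Fgb) and 5.96 (Fgg) on the scale per length as means of the 10 mice.

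Of the 31 serpins, 10 followed Alb. They were the antitrypsins Serpina1a to Serpina1d, which inhibit neutrophil elastase and other serine proteases, Serpina3k and Serpina3m of the antichymotrypsin group, antithrombin (Serpinc1), alpha-2-antiplasmin (Serpinf2), corticosteroid-binding globulin (Serpina6) and the protein Z-dependent inhibitor Serpina10. Serpina1b (chr12:103728156-103738189) had 12.7, 214, 687, 298 and 297 normalized counts in control 1, 2, 3, 4 and 6. It had 665, 305, 746, 681 and 1105 in iSOD2 5, 7, 8, 9 and 10. Serpina6 spread most, from 0 in control 1 to 126 in iSOD2 10. The Serpina1 genes are near copies: between 37.9% (Serpina1e) and 73.0% (Serpina1c) of the 50-base windows of their GENCODE transcripts occur in another Serpina1 transcript, so reads could be placed on the wrong copy and the level of each is uncertain.

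The steady members were Apoe, Serping1, Serpinf1, Serpina3n and Apod. Apoe (chr7:19696244-19699188) had 4306, 4173, 4358, 4241 and 4144 normalized counts in control 1, 2, 3, 4 and 6, so the heart with almost no Alb had as much Apoe as the other controls. Its level per length, 178 as a mean of 10 mice, was above that of Alb, at 135. In control 1 the corresponding levels were 160.2 for Apoe and 1.11 for Alb. Serping1 (chr2:84765360-84775429) had 1696, 1632, 1554, 1486 and 1529 normalized counts in the controls and 1619.6, 1723, 1687, 1818 and 1708 in iSOD2 5, 7, 8, 9 and 10, with control 1 among the higher hearts. Serpinf1, an antiangiogenic serpin without protease inhibition, had 408 to 607 in controls and 435 to 703 in iSOD2 mice. Serpina3n, which rises in many tissues under inflammation, had 44.5 to 94.1 in controls and 74.3 to 108 in iSOD2 mice. Apod, which carries small lipids, had 32.6 to 66.8 and 53.7 to 68.8. The level of these 5 genes in control 1 was 84.4% to 118% of the mean of the other mice, against 0% to 8.95% for the followers. This contrast follows from the sorting on Alb, which control 1 stretched, so it is no test of the classes. Being steady does not by itself name the cell that makes a transcript.

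Some chromosomal neighbours fell in different classes. Of 14 adjacent pairs of sorted members on the same chromosome less than 100000 bases apart, 9 were of the same class and 5 were not. Apoe and Apoc1, 3584 bases apart on chromosome 7, were steady and a follower, Apoc1 having 2.71 normalized counts in control 1. Serpinf1 and Serpinf2, 9112 bases apart on chromosome 11, were likewise steady and a follower. Serpina3n, steady, lay 12450 bases from Serpina3m, a follower, in the serpin cluster of chromosome 12.

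Trf, Apoa2, Serpina1e, Serpind1, Apom and Apoc2 lay between. Trf (transferrin, the iron carrier of plasma; chr9:103208876-103230286) had 894, 1428, 2417, 1690.0 and 1473 normalized counts in control 1, 2, 3, 4 and 6. It had 2086, 1486, 2785, 2493 and 3912 in iSOD2 5, 7, 8, 9 and 10. Its order was near that of Alb but its floor was high, so it was also fitted as a straight line on Alb counts over the 9 mice other than control 1. That line met the axis at 918 ± 140 normalized counts of Trf where Alb would be 0 (standard error), which is 41.8% of the mean of those mice, and rose by 20.5 ± 1.93 counts per 100 of Alb. It put control 1 at 928 ± 253, and the measured value was 894. The counts of Trf thus lay near a line with a fixed part and a part in proportion to Alb.

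Apoa2, the second protein of high density lipoprotein (chr1:171221564-171226379), had a similar shape, with 163 ± 29.7 normalized counts at an Alb of 0 and 2.32 ± 0.41 more per 100 of Alb. The line put control 1 at 164 ± 53.7, and 114 were measured. The counted transcript of Apoa2 begins 3490 bases upstream of the earliest Apoa2 start in GENCODE and shares 951 bases of its span with Tomm40l on the other strand, which had 1206 to 1547 normalized counts. The counting command named no strand, and the part of Tomm40l reads in the Apoa2 value was not tested. For Apoe the same line met the axis at 4008 ± 222 (85.2% of the mean) and rose by 11.2 ± 3.07 counts per 100 of Alb. For the follower Ahsg it met it at 75.4 ± 48.1, and 23.5 were measured in control 1. Serpind1 (heparin cofactor II) lies inside Pi4ka, a gene on the opposite strand with 2005 to 2414 normalized counts, so its 48.8 to 114 counts are uncertain in the same way. Apoc2, the activator of lipoprotein lipase, and Apom had low counts, with 0.904 to 31.1 and 8.14 to 48.1.

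**Figure D2:**
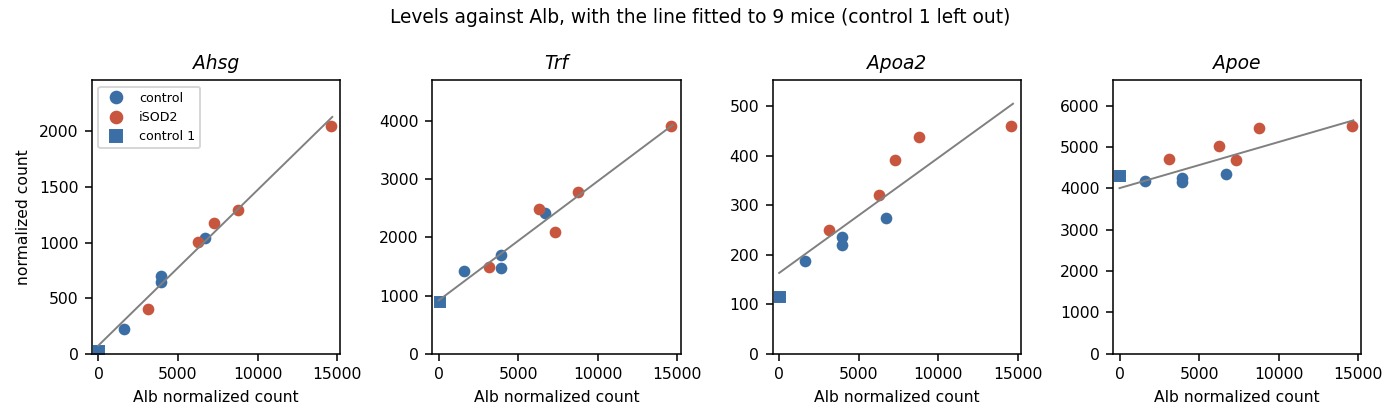
Normalized counts of Ahsg, Trf, Apoa2 and Apoe (y axes, from 0) against the normalized count of Alb (x axes), 1 point a heart, with the straight line fitted to the 9 hearts other than control 1 (square). The line meets the y axis near 75.4 for Ahsg, 918 for Trf, 163 for Apoa2 and 4008 for Apoe.

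The 19 scarce members had means from 0 to 8.54. They included Apoa4, Apol6 and Apol8, and 16 serpins of the a group, such as Serpina3g with 2.51 to 19.4. Serpina16, Serpina3a, Serpina3j and Serpina5 rounded to 0 in every mouse, and with Apol8 and Serpina3b they did not reach the 10 summed counts needed for a fit, which left 51 members.

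Most of the 30 listed enzymes and transporters of hepatocytes, which are not secreted, moved with the same mice. The 30 genes summed to 497 to 4846 normalized counts in controls and 2631 to 8743 in iSOD2 mice, and 5 of the 30 were at 0 in control 1. By the rule used for the members, 22 of the 30 followed Alb, 5 lay between and 3 were steady. The steady ones, Fah, Slc10a1 and Cyp7b1, had 186, 111 and 25.3 normalized counts in control 1 and are part of the sum and of the mean level. Over the 38 sorted members, r with the mean level of all 30 genes was 0.923 to 0.998 for the followers (rho 0.709 to 0.988). For the steady members it was −0.0496 to 0.583 (rho 0.00606 to 0.806). Without control 1 and iSOD2 10, the 2 mice farthest from the median, r was 0.721 to 0.987 for the followers and −0.0641 to 0.747 for the steady members. Alb itself had r = 0.993 with the mean level of the 30 genes, and the classes were sorted on Alb in the same mice. The gap between followers and steady members was thus largely set by the sorting and is no test of it. Among the 38 relations computed, r for Trf was 0.903 (permutation p = 1e-05, the smallest that 100000 resamples can give, unadjusted; rho 0.964, p = 7e-05) and 0.942 without those 2 mice. For Apoe it was 0.583 (permutation p = 0.0599; rho 0.806, p = 0.00711) and 0.747. For Serpina1e it was 0.675 (permutation p = 0.0309; rho 0.358, p = 0.313) and fell to 0.21 without those 2 mice, so that relation rested on them. Whether the hepatocyte transcripts came from cells of the heart or from liver RNA in the samples was not tested.

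Among 37 other plasma proteins of the liver that the table holds, 17 followed Alb, 5 were steady, 12 lay between and 3 had a mean under 10. Vitronectin (Vtn) and ceruloplasmin (Cp), which carries copper, were among the steady ones. The split found among the members thus also ran through plasma protein genes that the rule did not take.

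Genotypes were compared next, to ask which of these transcripts differed in hearts that had been through the loss of SOD2 in utero. Over all genes, 281 of 9479 with an adjusted p were called (adjusted p at most 0.05 and absolute log2 fold change above 0.25), which is 2.96%, and 120 of them, 1.27%, were higher in iSOD2 hearts. Of the members, 20 had an adjusted p and 2 were called, Apoe and Apoa2, both higher.

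Apoe was higher in every iSOD2 heart than in any control, at 4692, 4720.3, 5470.0, 5027 and 5514 normalized counts in iSOD2 5, 7, 8, 9 and 10. The controls, at 4245 ± 89.2, and the iSOD2 mice, at 5085 ± 395 (SD, n = 5 each), did not overlap. The same held for 664 of all 17728 genes fitted (3.75%). The log2 fold change was 0.26 ± 0.06 (standard error; DESeq2 adjusted p = 0.000663). It lay just above the threshold of 0.25, and fell to 0.23 without iSOD2 8 and likewise without iSOD2 10, below it. By edgeR, which called no gene of the table, its adjusted p was 0.0745, and with a trend over exon length removed the fold change was 0.17 (DESeq2 adjusted p = 0.121). Macrophages are a known source of Apoe; the 12 macrophage markers summed to 8943 to 10984 in controls and 7929 to 10462 in iSOD2 mice, 1 of the 12 (Cx3cr1) was called, lower (log2 fold change −0.85 ± 0.20), and their part in the result was not tested.

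Apoa2 had 114, 187, 273, 235 and 221 normalized counts in control 1, 2, 3, 4 and 6. It had 390.1, 251, 437, 321 and 460.0 in iSOD2 5, 7, 8, 9 and 10. The genotypes overlapped only where iSOD2 7 lay below control 3. The log2 fold change was 0.85 ± 0.20 (DESeq2 adjusted p = 0.00246), and 0.70 without control 1, where DESeq2 gave no adjusted p (unadjusted 4.12e-05), and the call was lost without control 2 (0.82, adjusted p = 0.0866). With the level of the 30 hepatocyte genes as a covariate it was 0.39 ± 0.13, with no adjusted p, and by edgeR the adjusted p was 0.089. Tomm40l, whose reads may enter the value, was not called.

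The followers were higher in iSOD2 hearts in their means and not past the test. All 27 had a positive log2 fold change, from 0.63 to 1.90 with a median of 1.21, against a median of −0.01 over all genes tested, and these 27 values are not independent since the members move together. Of the 14 with an adjusted p, 0 were called, and their adjusted p ran from 0.292 to 0.434. The normalized count of Alb was 3242 ± 2538 in controls and 8013 ± 4223 in iSOD2 mice, a log2 fold change of 1.31 ± 0.88 (DESeq2 adjusted p = 0.421). The mean log2 level of Alb was 10.6 ± 2.87 and 12.8 ± 0.81 (SD, 5 mice a group). The difference, 2.23, had an exact permutation p of 0.0714 (5 against 5 mice, for which the smallest p is 0.00794). With genotypes rearranged within litters only, a test added after the values were seen, the exact p was 0.0333 (120 arrangements), and it was over 0.05 without control 1 (0.117), control 2 (0.0833), iSOD2 5 (0.133), iSOD2 9 (0.117) or iSOD2 10 (0.167). Without control 1 the difference was 0.99 (exact p = 0.119), and without control 3 it was 2.76 (exact p = 0.0238). By edgeR 32 of the 51 members had an unadjusted p under 0.05, as did 2718 of 17728 genes, and 0 members were called. Serpina3m was at 0.904 to 22.6 in controls and 22.8 to 54.7 in iSOD2 mice. It and Apoe were the only members of the 51 fitted whose genotypes did not overlap, near the share of 3.75% over all 17728 genes.

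The genotypes were also compared within each sex and within litter B. In females alone, where control 4 and control 6 had nearly equal Alb, 21 of 40 members tested were called, against 93 of 15320 genes (0.607%), and all 21 were higher in iSOD2 hearts. They were 19 followers, Apoa2 and Serpina1e. Apob, with the smallest adjusted p of the 21, had 725 and 802 normalized counts in control 4 and 6. It had 1524, 1970.0 and 2553 in iSOD2 5, 8 and 10, a log2 fold change of 1.40 ± 0.19 (DESeq2 adjusted p = 2.68e-10). Alb itself was not called in females (1.38, DESeq2 adjusted p = 0.0902). The followers move together, so these calls are not independent. In litter B alone, which does not hold control 1, 3 members were called, Apoa2, Apoc1 and Apoc3, all higher, against 66 of 13596 genes (0.485%), and Apoe had a log2 fold change of 0.26 there (DESeq2 adjusted p = 0.161). In males alone 0 of 5 members tested were called, with control 1, 2 and 3 far apart. The fit in females had 2 controls and 3 iSOD2 mice and treats the spread of 2 hearts as that of the group, and the difference between the sexes was not tested.

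With the level of the 30 hepatocyte genes as a covariate, 9 of the 27 followers had a positive log2 fold change, their median was −0.13, Alb stood at −0.36 ± 0.14 (DESeq2 adjusted p = 0.133), and 0 members were called. Apoe kept 0.24 ± 0.07 (adjusted p = 0.0395), under the fold threshold. The other steady members were not called in the main comparison. Serping1 was 1579 ± 84.1 against 1711 ± 71.5 (log2 fold change 0.12 ± 0.05, DESeq2 adjusted p = 0.195) and Serpinf1 534 ± 84.7 against 599 ± 110.0 (0.17 ± 0.14, adjusted p = 0.524). Of those between, Trf was 1580.3 ± 552 against 2552 ± 903 (0.69 ± 0.32, adjusted p = 0.191).

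**Figure D3:**
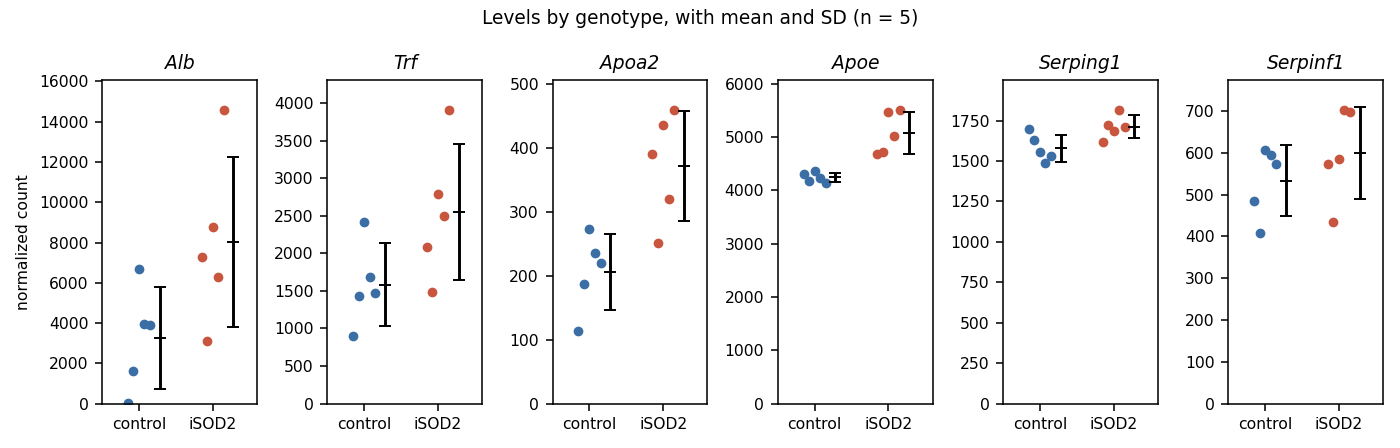
Normalized counts (y axes, from 0) of Alb, Trf, Apoa2, Apoe, Serping1 and Serpinf1 in the 5 control and 5 iSOD2 hearts, 1 point a heart, with the mean and SD beside them. Apoe is the gene of the 6 whose genotypes do not overlap, as is the case for 3.75% of all 17728 genes fitted.

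**Figure D4:**
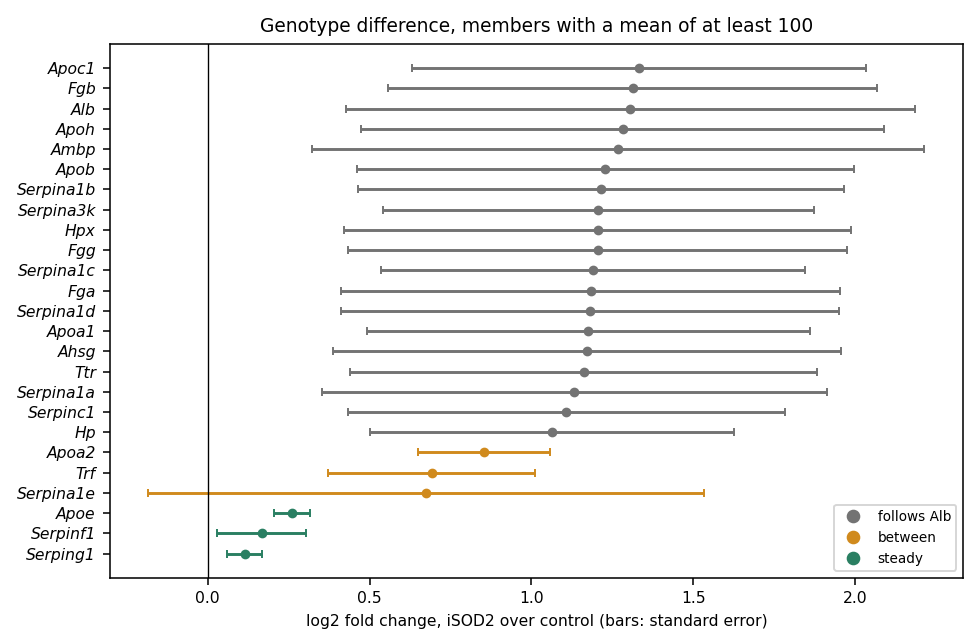
Log2 fold change of iSOD2 over control (x axis, bars are standard errors) for the 25 members of mean 100 or more, coloured by class. The followers lie near 1.2 with wide errors, and Apoe, Serpinf1 and Serping1 lie between 0.12 and 0.26 with narrow ones.

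The receptors and enzymes that these proteins meet were read from lists of their own. Of 24 lipoprotein receptors, lipases and transporters, 17 had an adjusted p, 0 were called higher and 1 lower, and the median log2 fold change was 0.01. The lower gene was Lrp1, a large receptor that takes up apolipoprotein E and serpin-protease complexes, at 10963 ± 1232 in controls and 8159 ± 639 normalized counts in iSOD2 mice (−0.43 ± 0.08, DESeq2 adjusted p = 0.000132). Of the other genes of largest change in that list, Lcat, which esterifies cholesterol on lipoproteins, was 44.3 ± 15.1 against 75.3 ± 19.7 and had no adjusted p. Angptl4, an inhibitor of lipoprotein lipase, was 195 ± 140 against 148 ± 61.5 (adjusted p = 0.727), and Gpihbp1, which anchors the lipase to capillaries, was 972 ± 169 against 1109.6 ± 218 (adjusted p = 0.478). Of 19 serpin targets and haem or iron partners, 8 had an adjusted p and 1 was called, C1ra, which encodes the complement protease C1r that Serping1 inhibits, at 269 ± 23.3 against 328 ± 28.9 (0.29 ± 0.09, DESeq2 adjusted p = 0.0398). By edgeR, which called 0 genes, neither Lrp1 nor C1ra was called. With the exon length trend removed, the calls over all genes fell from 281 to 133. The transferrin receptor Tfrc was 7646 ± 2925 against 5713 ± 1612 (adjusted p = 0.466), prothrombin (F2), which followed Alb, was 59.5 ± 47.4 against 161 ± 66.8, and the transglutaminase Tgm2 was 4796 ± 413 against 5623 ± 580.0 (adjusted p = 0.0587).

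Litters were compared with genotype as a covariate. Over all genes 548 of 15654 were called (3.5%), and of the 42 members tested 2 were, Serpinf1 and Apof, both higher in litter B. Serpinf1 had 486, 408, 435 and 586 normalized counts in the litter A hearts (control 1, control 2, iSOD2 7 and iSOD2 8). It had 607, 595, 574, 574, 703 and 698 in litter B (control 3, 4 and 6, iSOD2 5, 9 and 10). The litters overlapped only at iSOD2 8, and the log2 fold change was 0.38 ± 0.10 (DESeq2 adjusted p = 0.00452). It did not pass without control 2 (0.33, adjusted p = 0.0537) or without iSOD2 7 (0.31, adjusted p = 0.0719). Apof, at 2.71 to 41.4 in litter A and 19.2 to 77.3 in litter B, had a log2 fold change of 1.11 ± 0.35 (adjusted p = 0.0422). It was not called without control 1 (0.76, adjusted p = 0.31), control 2, 3 or 4, iSOD2 7 or iSOD2 10, nor with sex as a covariate too (1.04, adjusted p = 0.132), and it was 0.25 with the level of the hepatocyte genes as a covariate. Without iSOD2 8, the litter A mouse with most Alb, 8 of 42 members tested were called, against 608 of 15654 genes.

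Sexes were compared in the same way. Of 46 members tested 0 were called, where 79 of 16348 genes were (0.483%). By DESeq2 8 members had an unadjusted p under 0.05, as did 1170 of 17723 genes. Serpina1e had 21.7, 329, 559, 298 and 796 normalized counts in the males (control 1, 2 and 3, iSOD2 7 and 9) and 88.9, 54.6, 145, 141 and 299.7 in the females (control 4 and 6, iSOD2 5, 8 and 10). The sexes overlapped in level, at 21.7 to 796 in males and 54.6 to 299.7 in females.

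Set against its paralog Serpina1b, Serpina1e separated. There were 171, 154, 81.4, 98.0 and 117 Serpina1e counts per 100 of Serpina1b in the males, in the order above, and 29.8, 18.4, 21.8, 18.9 and 27.1 in the females. The lowest male was thus above the highest female, and the mean log2 ratio was 2.39 lower in females (exact permutation p = 0.00794, the smallest that arrangements of 5 against 5 can give). This ratio was chosen after the values were seen, so the p is not independent of the choice. Serpina1a (0.05, exact p = 0.889), Serpina1d (0.04, exact p = 0.81) and Ttr (−0.11, exact p = 0.278) had no such difference from Serpina1b detectable with 5 mice a sex, and Serpina1c was −0.41 (exact p = 0.0238, with overlap). Set against Alb, other members differed too. The log2 ratio to Alb was lower in females, without overlap, for Serpina1a (−0.65), Serpina1b (−0.70), Serpina1c (−1.11), Serpina1d (−0.66), Apob (−0.71), Fga (−0.66), Ttr (−0.81) and Hp (−1.43) as well as for Serpina1e (−3.09), each with an exact permutation p of 0.00794. For Serpina3k it was −1.5 (exact p = 0.0159, with overlap) and for Ahsg −0.24 (exact p = 0.897). Serpina1e had the largest difference of these 11 ratios. Control 1, a male with little Alb, had the highest ratio to Alb of all hearts in each case but Serpina1a. For Hp it had 22.6 counts per 100 of Alb, against 2.36 to 3.12 in the other males and at most 2.14 in the females. The sizes of these differences thus rest in part on control 1 and were not computed without it, while the lack of overlap does not rest on it. With the level of the hepatocyte genes and genotype as covariates, also chosen after the values were seen, 51 of 17728 genes were called between the sexes (0.288%), and Serpina1e was the 1 member among them, lower in females (log2 difference −2.40 ± 0.18, DESeq2 adjusted p = 6.12e-36). It was −2.27 to −2.68 with any 1 mouse left out. Serpina3k, from the neighbouring antichymotrypsin group, was −0.88 ± 0.38 in that fit (adjusted p = 0.728). As printed above, the windows before Serpina1b and Serpina1e hold both cores.

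**Figure D5:**
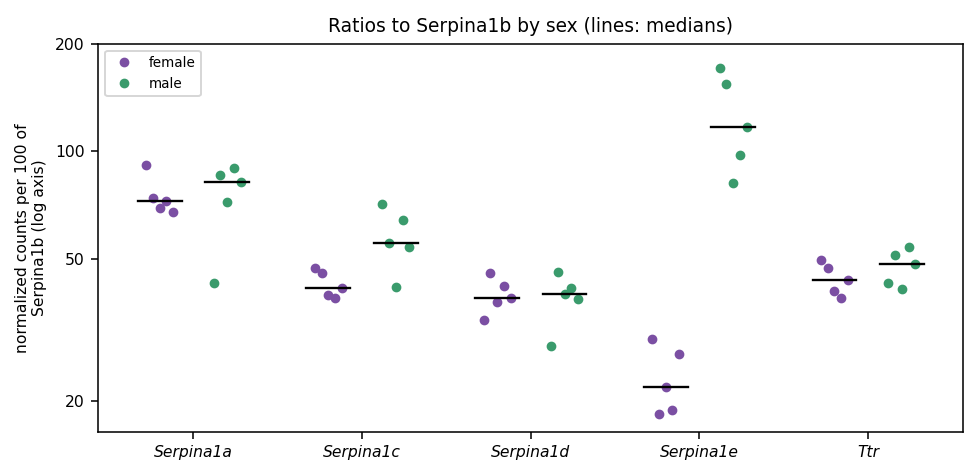
Normalized counts of Serpina1a, Serpina1c, Serpina1d, Serpina1e and Ttr per 100 of Serpina1b (y axis, log scale) in 5 female and 5 male hearts, with medians as lines. For Serpina1e the females lie at 18.4 to 29.8 and the males at 81.4 to 171.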

How the data were processed

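Total RNA of 10 hearts was depleted of ribosomal RNA and sequenced in pairs of mates, and per the study's methods adapters were trimmed (Trim Galore) before alignment to mm10 by STAR and exon counting by HOMER, which kept 1 transcript per gene. The authors left these as estimated counts with a step of 0.5, not normalized, beside the other unit of the deposited table, an exon length in base pairs. The command named no strand option, so overlapping genes on opposite strands are uncertain. Libraries held 16448090 to 24263086 counts, and with 5 mice a genotype the spread between mice, not counting error, set the precision of all but the scarce members. Floors cover counting error only.

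Counts were rounded, and 17728 genes with at least 10 summed counts were fitted in DESeq2 (version 1.42.0, R 4.3.3; Wald test) with size factors, no covariate and Benjamini-Hochberg adjustment over all genes. DESeq2, the count filter and the thresholds follow the study's methods. A gene was called at an adjusted p of at most 0.05 and an absolute log2 fold change above 0.25; DESeq2 gave no adjusted p to genes of low mean. Sex and litter were fitted with genotype as a covariate. edgeR 4.0.16 (quasi-likelihood) was an alternative, with other scalings, filters, covariates, subsets and each mouse left out. The DESeq2 fit and the sorting by Alb were tested on simulated data, and the edgeR fit was not. Exact permutation tests were two-sided over all arrangements of 5 mice against 5. Named genes were all members whose mean normalized count was at least 100, all called members, and the 4 genes of largest change in each partner list. The members, lists and rules were chosen with earlier results of these data known. The covariate of 30 hepatocyte genes for sex and litter, the ratios to Serpina1b and Alb and the test within litters were chosen after seeing the data. Motifs were searched in RefSeq sequence of GRCm38.p6, and 50-base windows in GENCODE transcripts. Same-numbered mice do not occur in both genotypes.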

Additional observations from a re-analysis of the deposited data

Results flagged for a closer look

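Serpina1e in iSOD2 9 was the 1 value of 52 groups of 5 mice that lay far from its group, by Dixon's ratio of the gap to the range (0.758, above the 95% critical value for 5 samples). It had 796 normalized counts there, and the other iSOD2 hearts had 141 to 299.7. iSOD2 9 was a male. Over 52 groups chance alone gives about 2.6 such values.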

How the results depend on the processing

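The genotype comparison called 2 members. It called 0 by edgeR, 0 with the level of the 30 hepatocyte genes as a covariate, 0 in males alone, 3 in litter B alone (Apoa2, Apoc1 and Apoc3), 1 with the exon length trend removed and 21 in females alone. With 1 mouse left out it called 1 to 6: 1 without control 1, control 2, iSOD2 8 or iSOD2 10, and 6 without control 3. Those 6 were of 40 members tested, against 186 of 15316 genes. With that covariate the log2 fold change of Alb turned to −0.36, and 9 of the 27 followers stayed positive. TMM scaling, no count filter, a higher filter and sex and litter covariates left the count at 2. The sex comparison, with 0 called, gave 1 with that covariate and 0 to 2 with 1 mouse left out (Serpina1e at −2.01 without control 1). The litter comparison, with 2 called, gave 1 with sex as a covariate, 0 with that covariate and 0 to 8 with 1 mouse left out, 0 without iSOD2 7 and 8 without iSOD2 8. The Alb difference of 2.23 had an exact p over 0.05 in the alternatives other than without control 3 (0.0238) and, added after the data were seen, with genotypes rearranged within litters (2.23, exact p = 0.0333). Females, males and litter B alone cannot go below 0.1, so their p says nothing of stability. The difference ran from 0.99 to 2.76 with 1 mouse left out. The number of members that follow Alb was 27, 18 with a pseudocount of 10, 28 with the hepatocyte genes in place of Alb, and 22 to 27 with 1 mouse left out. The cause of these changes was not tested. No paired analysis was possible because the genotypes share no replicate numbers, but both litters hold both genotypes, and litter was used as a covariate and in the rearranged test above. Depth limits the 19 members with a mean under 10, for which no sorting was made.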
